A study of Mus musculus with 72 samples.

Results

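The 10 Toll-like receptor genes Tlr1, Tlr2, Tlr3, Tlr4, Tlr5, Tlr6, Tlr7, Tlr8, Tlr9 and Tlr13 were followed across 3 tissues of 24 male mice. They are the rows of the count table whose Ensembl identifiers carry these symbols, 10 of 55416 genes in the table. The mice were FVB.129P2, the sighted FVB strain, and fell into 4 groups of 6 by the feeding of their dams and by their own diet. FED dams ate freely, while CR20 dams received 20% less food than a paired FED dam from embryonic day 15 until the pups were weaned at postnatal day 21. From 8 weeks of age the offspring ate either a diet with 10% fat (CTRL) or a high fat diet with 45% fat (HFD). The labels and the methods of the study name 10 or 16 weeks on the diets, without saying which holds for a given library, while the study's results speak of 10 weeks for the sequenced mice. Groups are therefore FED-CTRL, FED-HFD, CR20-CTRL and CR20-HFD, and epididymal white adipose tissue (eWAT), liver and pituitary came from the same animals. Litters are not given in the sources used here, so a p-value measures the spread between mice, some of which may share a litter.

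Toll-like receptors are membrane proteins that recognise molecules of microbes and of damaged cells, and macrophages, dendritic cells and some epithelial and stromal cells carry them. Tlr1, Tlr2, Tlr4, Tlr5 and Tlr6 sit mainly at the cell surface, where Tlr2 pairs with Tlr1 or Tlr6 to bind lipoproteins, Tlr4 with its partner Ly96 binds lipopolysaccharide and Tlr5 binds flagellin. Tlr3, Tlr7, Tlr8, Tlr9 and Tlr13 sit in endosomes and detect nucleic acids: Tlr3 binds duplex RNA, Tlr7 and Tlr8 RNA of a single strand, Tlr9 DNA with unmethylated CpG, and Tlr13 bacterial ribosomal RNA. All but Tlr3 signal through the adaptor Myd88, and Tlr3 and Tlr4 use Ticam1, toward NF-kappa-B and interferon regulatory factors. In adipose tissue of obese rodents the family has been studied mainly in the macrophages that collect around adipocytes.

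The genes lie on 7 chromosomes of the mouse genome (GRCm39). Tlr1 (chr5:65082022-65090941) and Tlr6 (chr5:65108704-65203497) are neighbours on the minus strand, as are Tlr8 (chrX:166024184-166047325) and Tlr7 (chrX:166086758-166113605), and Tlr13 lies elsewhere on the X chromosome (chrX:105186810-105204533, plus strand). Tlr2 (chr3:83743576-83749074) and Tlr3 (chr8:45848702-45864117) are on the minus strand, and Tlr4 (chr4:66745783-66849936), Tlr5 (chr1:182782311-182805500) and Tlr9 (chr9:106099797-106104082) on the plus strand. Their merged exons span from 3381 bases in Tlr1 to 7009 bases in Tlr4, which is why the order of the receptors by level is given per kilobase of exon. Sums over genes are in plain CPM.

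One pair of receptors is so alike that reads can be hard to place. The coding sequences of Tlr1 and Tlr6 share an identical stretch of 229 bases, at chr5:65082880-65083108 in Tlr1 and at chr5:65111171-65111399 in Tlr6, both read from the minus strand. It is printed once because it is the same in both genes.
Tlr1 and Tlr6 shared stretch: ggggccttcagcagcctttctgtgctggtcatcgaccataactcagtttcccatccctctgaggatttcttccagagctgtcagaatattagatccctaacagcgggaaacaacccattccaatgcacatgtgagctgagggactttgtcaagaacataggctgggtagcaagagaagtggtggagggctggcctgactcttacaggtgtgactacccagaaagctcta
Of the 4248 windows of 100 bases in the canonical Tlr6 transcript, 259 occur without a mismatch in Tlr1, so counts of this pair are uncertain by the reads that fall there. The canonical transcript is 3046 bases long in Tlr1 and 4347 in Tlr6, so the 229 bases are a larger part of Tlr1. Reads were paired, while the search took single windows. How reads with several placements were counted is not given in the sources used here. Among the other 44 pairs of members, none shared an identical window of 100 bases. A long non-coding gene, Gm45542, overlaps Tlr3 on the opposite strand over 438 exon bases and is itself in the count table.

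Library totals ran from 9842813 to 27601208 counts (median 19705838.5), and no 2 libraries held identical values. The tissues matched their labels: the 4 hepatocyte markers summed to 59816 to 105757 CPM in liver, the 5 pituitary hormone genes to 231895 to 409136 CPM in pituitary, and the 5 adipocyte markers to 9406 to 32079 CPM in eWAT. In eWAT, FED-HFD mouse 23 (9406 CPM) and CR20-CTRL mouse 5 (9553 CPM) had the lowest adipocyte sums. Epididymis markers, near 0 in the other eWAT libraries, summed to 133 CPM in CR20-CTRL mouse 4, 52.0 CPM in CR20-CTRL mouse 5 and 26.4 CPM in CR20-HFD mouse 6. Hepatocyte markers reached 679 CPM in the eWAT of FED-HFD mouse 10, 492 CPM in that of CR20-CTRL mouse 5 and 124 CPM in that of FED-HFD mouse 13. Adipocyte markers reached 113 CPM in the pituitary of FED-HFD mouse 10, against at most 10.2 CPM in the other 23 pituitaries. CPM are counts scaled to a common library total after TMM normalisation.

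In eWAT the summed CPM of the family, in which abundant members weigh most, had its highest median in FED-HFD males. The 10 genes summed to 131, 153 and 167 CPM (lowest, median and highest of 6 mice) in FED-CTRL, 179, 258 and 534 CPM in FED-HFD, 121, 142 and 190 CPM in CR20-CTRL and 110, 133 and 142 CPM in CR20-HFD. Every FED-HFD sum therefore lay above every FED-CTRL and every CR20-HFD sum. The first comparison, FED-HFD vs FED-CTRL, asks which receptors respond to the high fat diet in offspring of normally fed dams. A gene was called changed at an adjusted p of 0.055 or less with a log2 fold change of at least 0.58 in size, the limits of the study's methods, in edgeR's quasi-likelihood test over 15964 genes. Tlr1, Tlr7, Tlr8, Tlr9 and Tlr13 were higher in FED-HFD, 5 of 10 members, against 6.42% of all tested genes called higher. The members were chosen with earlier results of these data known. The median log2 fold change of the 10 was 0.72, and that of all tested genes was 0.00.

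**Figure D1:**
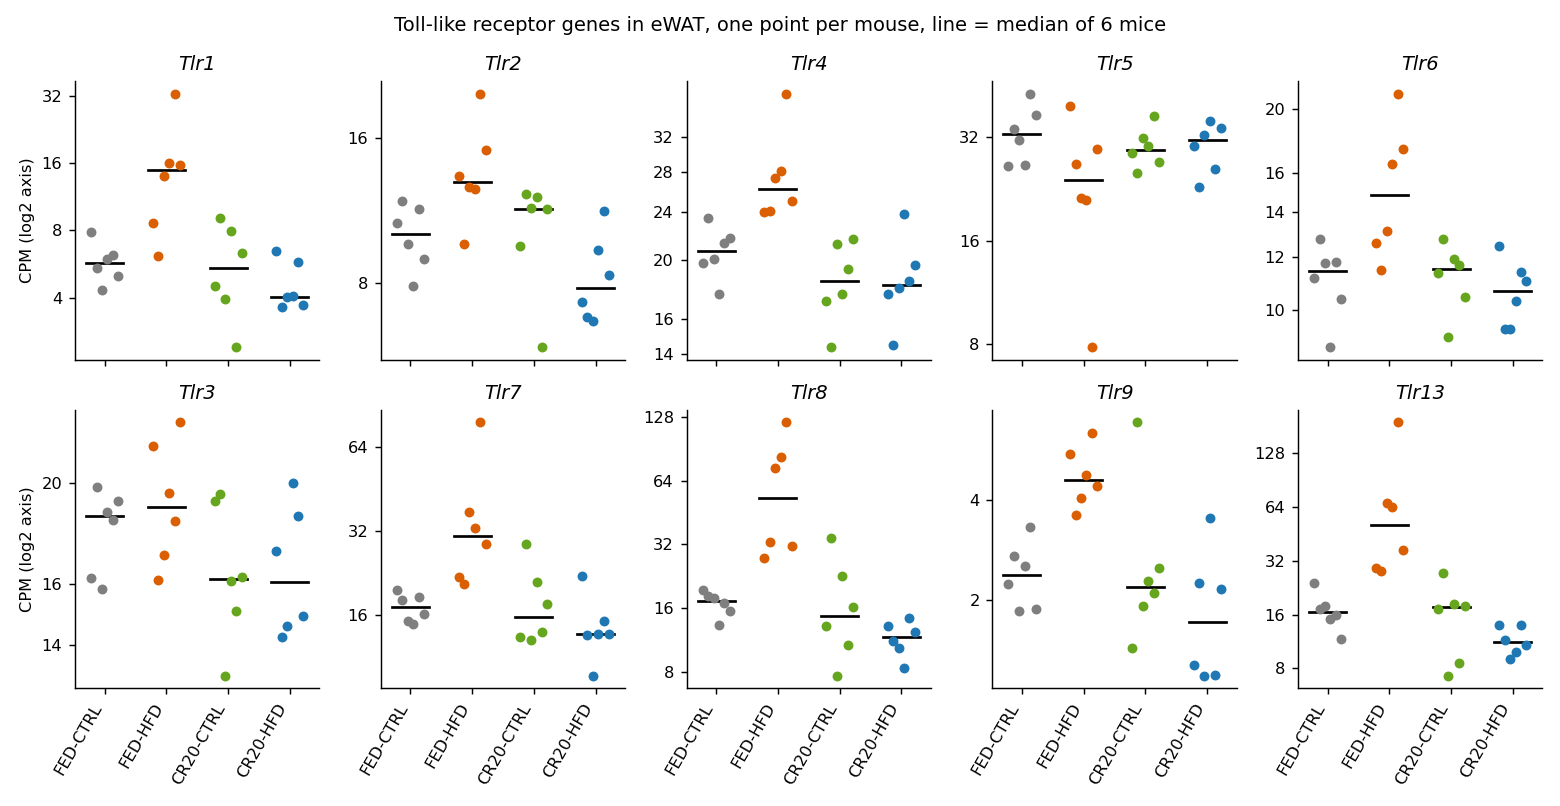
CPM in eWAT (vertical log2 axis, a scale of its own for each gene) of the 10 receptors in 4 groups, 1 point per mouse and a line at the median of 6 mice, with surface receptors above and endosomal receptors below. The FED-HFD points of Tlr4, Tlr7, Tlr8, Tlr9 and Tlr13 lie above all FED-CTRL points, and FED-HFD mouse 23 gives the highest Tlr13 (191 CPM) and the lowest Tlr5 (7.85 CPM).

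Among the endosomal receptors, the RNA sensors Tlr13 and Tlr8 had the largest differences. Tlr13 measured 11.7, 16.6 and 24.0 CPM (lowest, median, highest) in FED-CTRL and 28.0, 50.7 and 191 CPM in FED-HFD. Tlr8 measured 13.3, 17.4 and 19.4 CPM in FED-CTRL and 27.7, 53.2 and 121 CPM in FED-HFD. For both genes the groups did not overlap, and 3 FED-HFD mice (12, 13 and 23) stood above the other 3. The log2 fold change was 2.03 ± 0.38 (SE) for Tlr13, or 4.10-fold (edgeR adjusted p = 0.00314), and 1.87 ± 0.34 for Tlr8, or 3.65-fold (edgeR adjusted p = 0.00297).

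Tlr7, the neighbour of Tlr8 on the X chromosome and also an RNA sensor, measured 14.9, 17.2 and 19.7 CPM in FED-CTRL and 20.7, 30.7 and 78.04 CPM in FED-HFD. Its groups did not overlap either, and its log2 fold change was 1.10 ± 0.26 (2.14-fold, edgeR adjusted p = 0.00971). Tlr9, the DNA sensor, was the least abundant member, with 38 to 60 counts per library in FED-CTRL and 65 to 138 in FED-HFD, or 1.85, 2.38 and 3.31 CPM against 3.59, 4.58 and 6.34 CPM. Its log2 fold change of 0.98 ± 0.32 was called by a small margin (edgeR adjusted p = 0.0526) and was no longer called without any 1 of 17 of the 24 mice, at 0.87 to 1.08 in those fits. It was also called in limma (0.89, limma adjusted p = 0.00153) and DESeq2 (0.99, DESeq2 adjusted p = 0.0202). Tlr3, the sensor of duplex RNA, did not follow the other endosomal receptors: medians were 18.6 and 18.9 CPM, ranges overlapped, and the log2 fold change was 0.09 ± 0.11 (edgeR adjusted p = 0.637).

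Groups without overlap were found for Tlr4, Tlr7, Tlr8, Tlr9 and Tlr13, 5 of 10 members, against 4.06% of all tested genes whose FED-HFD values all lay above the FED-CTRL values.

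The stretches of 130 bases before the annotated start sites of Tlr13, Tlr8 and Tlr9 (GRCm39, start sites of GENCODE M39) are shown because, of the 5 members called higher, these 3 held the motif marked here within that stretch. They were picked after the search. Capitals mark GAGGAA, the core bound by the myeloid factor Spi1 (PU.1), which reads TTCCTC where it lies on the other strand.
Tlr13 (chrX:105186681-105186810, plus strand): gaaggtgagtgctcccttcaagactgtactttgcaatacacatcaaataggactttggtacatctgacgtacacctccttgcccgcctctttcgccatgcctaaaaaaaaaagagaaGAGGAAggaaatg
Tlr8 (chrX:166047283-166047412, minus strand): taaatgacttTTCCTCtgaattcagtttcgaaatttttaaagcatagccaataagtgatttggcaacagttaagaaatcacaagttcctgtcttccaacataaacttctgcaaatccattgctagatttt
Tlr9 (chr9:106099667-106099796, plus strand): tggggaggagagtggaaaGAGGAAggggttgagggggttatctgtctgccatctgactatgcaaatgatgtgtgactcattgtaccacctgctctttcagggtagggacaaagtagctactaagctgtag
Searched on both strands over 250 bases, GAGGAA was found in the promoters of Tlr2, Tlr4, Tlr8, Tlr9 and Tlr13 and in 22.9% of 21770 promoters of protein-coding genes. Tlr1 and Tlr7, which were also called, lacked these letters in that window. TGANTCA, the AP-1 site, was found in Tlr9 only, against 6.17% of promoters, and TATAAA in Tlr6, Tlr7 and Tlr8, against 11.9%. A loose form of the interferon response element was found in 0 members against 3.32% of promoters, and a loose frame of the NF-kappa-B site in Tlr2, Tlr3, Tlr5 and Tlr6 against 47.8%. These are matches of letters, and the data do not measure binding.

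Among the surface receptors only Tlr1 was called in this comparison. Tlr1, the partner of Tlr2 for triacylated lipoproteins, measured 4.34, 5.70 and 7.86 CPM in FED-CTRL and 6.11, 14.9 and 32.7 CPM in FED-HFD, so 5 of 6 FED-HFD mice lay above the FED-CTRL range. Its log2 fold change was 1.42 ± 0.32 (2.68-fold, edgeR adjusted p = 0.00712). Tlr6, the other partner of Tlr2, measured 8.80, 11.4 and 12.8 CPM in FED-CTRL and 11.5, 14.8 and 21.1 CPM in FED-HFD. At 0.47 ± 0.13 its log2 fold change had an adjusted p of 0.0247 in edgeR but stayed under the minimum fold. Tlr2 itself had a median of 10.1 CPM in FED-CTRL and 13.0 CPM in FED-HFD, with 5 of 6 FED-HFD mice above the FED-CTRL range and 1 inside it, a log2 fold change of 0.46 ± 0.18 (edgeR adjusted p = 0.0992).

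Tlr4, the receptor of lipopolysaccharide, measured 17.5, 20.7 and 23.4 CPM in FED-CTRL and 24.0, 26.2 and 37.7 CPM in FED-HFD. All 6 FED-HFD values lay above the FED-CTRL range, yet the difference was small, at a log2 fold change of 0.42 ± 0.12 (edgeR adjusted p = 0.0294), and it was not called for its size. Tlr5, the flagellin receptor, was the only member with a lower fitted level in FED-HFD. It measured 26.4, 32.7 and 42.8 CPM in FED-CTRL and 7.85, 24.0 and 39.5 CPM in FED-HFD, the ranges overlapped, and its log2 fold change of -0.45 ± 0.23 was not called (edgeR adjusted p = 0.217).

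**Figure D2:**
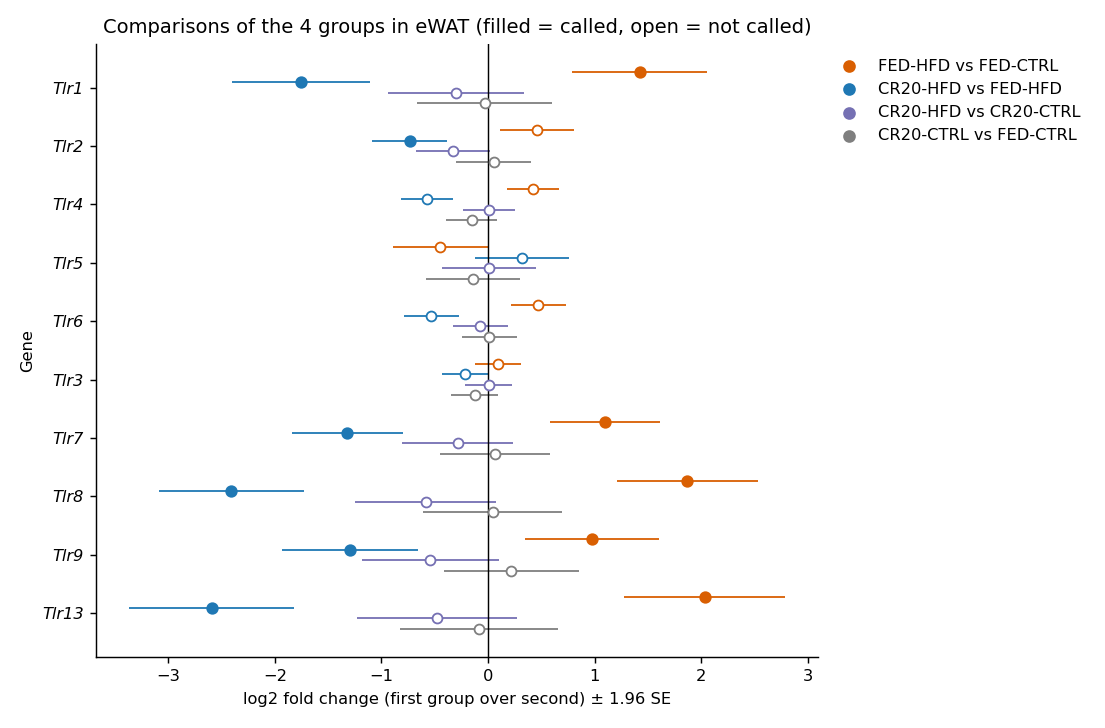
Log2 fold changes of the 10 receptors in eWAT (horizontal axis, first group over second) with bars of about 2 SE to each side, coloured by comparison, filled where the gene was called and open where it was not. The largest are Tlr13 and Tlr8, at 2.03 and 1.87 in FED-HFD over FED-CTRL and at -2.60 and -2.41 in CR20-HFD over FED-HFD, and no marker of the other 2 comparisons is filled.

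FED-HFD mouse 23 was the highest FED-HFD library for 8 of 10 members in eWAT and the lowest for Tlr5. Without it, Tlr13 (1.41), Tlr8 (1.56), Tlr1 (1.06) and Tlr7 (0.73) were still called higher in FED-HFD than in FED-CTRL, while Tlr9 had a log2 fold change of 0.87 (edgeR adjusted p = 0.141) and was not. Tlr5 was at -0.26 without it (edgeR adjusted p = 0.428), against -0.45 with it. Tlr4, at 0.31 (edgeR adjusted p = 0.122), and Tlr6, at 0.36 (edgeR adjusted p = 0.0879), then no longer met the limit on adjusted p. The number of genes called over the whole table went from 1278 to 656 without this mouse.

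The second comparison, CR20-HFD vs FED-HFD, asks whether maternal restriction changed the level on the same high fat diet. Tlr1, Tlr2, Tlr7, Tlr8, Tlr9 and Tlr13 were lower in CR20-HFD, 6 of 10 members, against 7.29% of all tested genes called lower. Since the FED-HFD mice enter both comparisons, these results are not independent of those above, and values are set side by side without a measure of agreement. In CR20-HFD, Tlr13 measured 9.05, 11.2 and 13.9 CPM, Tlr8 8.31, 11.7 and 14.3 CPM and Tlr9 1.19, 1.72 and 3.54 CPM. Every one of these values lay below the FED-HFD range of the same gene. Log2 fold changes were -2.60 ± 0.40 for Tlr13 (edgeR adjusted p = 0.000601), -2.41 ± 0.35 for Tlr8 (edgeR adjusted p = 0.000522) and -1.30 ± 0.33 for Tlr9 (edgeR adjusted p = 0.00982).

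For Tlr1 and Tlr7, 5 of 6 CR20-HFD mice lay below the FED-HFD range and CR20-HFD mouse 6 just inside it. Tlr1 measured 3.64, 4.03 and 6.46 CPM in CR20-HFD, with a log2 fold change of -1.75 ± 0.33 (edgeR adjusted p = 0.00125), and Tlr7 9.74, 13.7 and 22.1 CPM, with -1.32 ± 0.27 (edgeR adjusted p = 0.00212). Tlr2 was called here and not in the first comparison: it measured 6.68, 7.84 and 11.3 CPM in CR20-HFD, 5 of 6 mice lay below the FED-HFD range, and the log2 fold change was -0.73 ± 0.18 (edgeR adjusted p = 0.00803). In limma, the study's own test, it was -0.51 (limma adjusted p = 0.0286) and not called. Tlr4, at 14.5, 18.2 and 23.8 CPM, lay wholly below its FED-HFD range, and its log2 fold change of -0.57 ± 0.12 (edgeR adjusted p = 0.00369) missed the minimum of 0.58 by the second decimal.

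Tlr6 had a log2 fold change of -0.53 ± 0.13 (edgeR adjusted p = 0.00956), also under the minimum fold. Tlr3 at -0.21 ± 0.11 and Tlr5 at 0.32 ± 0.23 had adjusted p-values of 0.202 and 0.363 in edgeR. Groups did not overlap for Tlr4, Tlr8, Tlr9 and Tlr13, 4 of 10 members, against 4.17% of all tested genes whose CR20-HFD values all lay below the FED-HFD values. Without FED-HFD mouse 23 the same 6 members were called, with Tlr13 at -1.97 and Tlr8 at -2.10.

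Within CR20 offspring, the high fat diet did not move any member past the limits, and on the control diet the maternal groups did not differ past them either. In CR20-HFD vs CR20-CTRL, 0 of 10 members and 0% of all tested genes were called. The log2 fold changes ran from -0.58 ± 0.34 (Tlr8) to 0.01 ± 0.23 (Tlr5), 0 members had an unadjusted edgeR p under 0.05, and limma and DESeq2 also called 0. In CR20-CTRL, Tlr8 measured 7.66, 14.7 and 34.2 CPM and Tlr13 7.29, 17.6 and 27.2 CPM, ranges that include all CR20-HFD values. An interval of about 2 SE to each side ran from -1.23 to 0.27 for the diet response of Tlr13 in CR20 offspring, and from -1.25 to 0.08 for that of Tlr8. In CR20-CTRL vs FED-CTRL, likewise, 0 of 10 members and 0% of all tested genes were called, with log2 fold changes between -0.15 (Tlr4) and 0.22 (Tlr9), 0 members at an unadjusted edgeR p under 0.05 and 0 called by limma and DESeq2.

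CR20-CTRL mouse 5 was the highest of its group for 8 of 10 members, with 34.2 CPM of Tlr8 and 6.82 CPM of Tlr9. This is the library with the low adipocyte sum and with hepatocyte and epididymis marker counts, and the part of these in the receptor values was not tested.

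Whether the diet response itself differed between maternal groups was tested by the interaction, the response in CR20 offspring minus that in FED offspring. Tlr8 (-2.45 ± 0.48) and Tlr13 (-2.51 ± 0.54), both with an edgeR adjusted p of 0.0322, Tlr1 (-1.72 ± 0.46, edgeR adjusted p = 0.0476) and Tlr7 (-1.38 ± 0.37, edgeR adjusted p = 0.0496) were called lower, 4 of 10 members, against 2.34% of all tested genes called lower. Tlr9 at -1.52 ± 0.46 (edgeR adjusted p = 0.0775) and Tlr2 at -0.79 ± 0.25 (edgeR adjusted p = 0.0961) were not called. These calls were not stable. In limma the estimates were smaller, and of these 4 only Tlr8 was called (-1.73, limma adjusted p = 0.0529). Tlr13 was at -1.66 (limma adjusted p = 0.0597), Tlr7 at -0.91 (0.0746) and Tlr1 at -1.11 (0.173). With the range of the animal number as a covariate Tlr7, at -1.38 as before, was not called (edgeR adjusted p = 0.0608). Leaving out 1 mouse at a time gave 0 to 6 members, with 0 for 9 of the 24 mice (CR20-CTRL 5, 47 and 49, CR20-HFD 31 and 32, FED-CTRL 15, 16, 41 and 42), and each of these 9 fits called 0 genes of the whole table. Another 9 mice (CR20-CTRL 4, CR20-HFD 7, 45 and 46, FED-CTRL 14 and 24, FED-HFD 12, 13 and 23) left 2 members, Tlr8 and Tlr13, while leaving out FED-HFD mouse 11 gave 6 members. Over the left-out fits that lost them, the estimates stayed between -2.31 and -2.53 for Tlr13 and between -2.16 and -2.47 for Tlr8, with adjusted p-values from 0.0569 to 0.0720 in edgeR. Without the 3 libraries that hold epididymis marker counts, an alternative chosen after seeing the data, 0 members were called, while the estimates were -2.28 for Tlr13, -2.22 for Tlr8, -1.71 for Tlr1 and -1.42 for Tlr7.

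Some macrophage markers were called in the same comparisons and directions as the receptors. The 12 macrophage markers summed to 1679, 2071 and 2368 CPM in FED-CTRL, 2357, 3594 and 9978 CPM in FED-HFD, 1392, 1977 and 2722 CPM in CR20-CTRL and 1441, 1849 and 2314 CPM in CR20-HFD, with the 9978 CPM in FED-HFD mouse 23. None of the 12 was at 0 in any eWAT library. Lyz2 had the highest median of the 12 (959 CPM) and spread from 467 to 6694 CPM, so it weighs most in this sum. Cd68 (46.5 to 953 CPM) and Adgre1 (35.0 to 455 CPM) also spread widely. C1qa (164 to 361 CPM), Cd163 (27.1 to 60.8 CPM) and Mertk (21.0 to 52.4 CPM) spread less. Of the 12, 6 were called higher in FED-HFD vs FED-CTRL, 7 lower when CR20-HFD was set against FED-HFD, and 4 lower in the interaction. Without FED-HFD mouse 23 these counts were 4, 6 and 3. Of 5 markers of lipid-associated macrophages, 4 were called higher and 4 lower in the first 2 of these, although their sum, which includes the adipocyte lipase Lpl, had medians of 11662 CPM in FED-CTRL and 10735 CPM in FED-HFD. In bulk tissue, more or fewer macrophages and more or less receptor RNA per macrophage cannot be told apart.

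Across the 24 eWAT libraries, log2 levels of Tlr13 (r = 0.924), Tlr1 (0.900), Tlr7 (0.899) and Tlr8 (0.855) had the highest r with the macrophage sum, Tlr6, Tlr2 and Tlr4 had r of 0.824, 0.820 and 0.806, Tlr9 0.584 and Tlr3 0.314. Tlr5 ran the other way, at r = -0.788, which came to -0.452 without FED-HFD mouse 23. Taken on deviations from the group means, r was 0.829 for Tlr13, 0.785 for Tlr7, 0.777 for Tlr1, 0.720 for Tlr2, 0.650 for Tlr8, 0.637 for Tlr6, 0.582 for Tlr4, 0.146 for Tlr9, 0.018 for Tlr3 and -0.780 for Tlr5, so the order of the members depended on whether differences between groups were included. These are descriptions: the points share groups and library composition. Without FED-HFD mouse 23 the r of the other 9 members lay between 0.389 for Tlr3 and 0.871 for Tlr13.

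**Figure D3:**
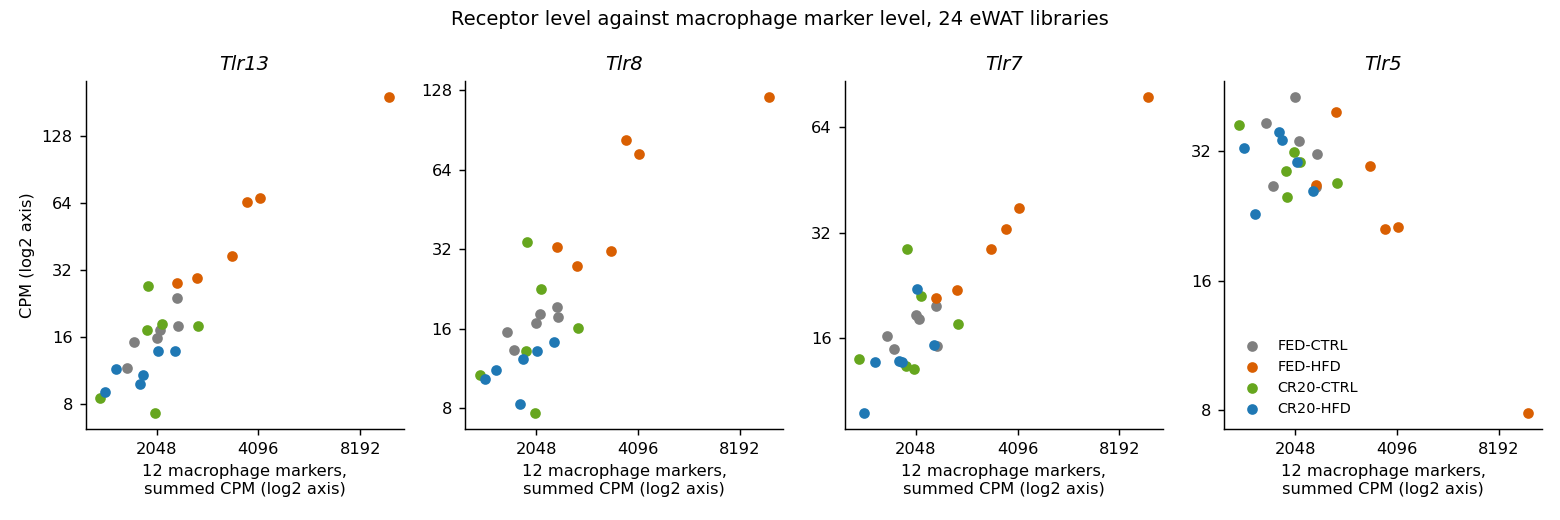
CPM of Tlr13, Tlr8, Tlr7 and Tlr5 (vertical log2 axis) against the summed CPM of 12 macrophage markers (horizontal log2 axis) in 24 eWAT libraries, 1 point per mouse, coloured by group. Tlr13, Tlr8 and Tlr7 are higher in libraries with a higher sum, Tlr5 is lowest in FED-HFD mouse 23 (9978 CPM of markers), and Tlr8 of CR20-CTRL mouse 5 (34.2 CPM) is high for its marker sum.

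Taken per 1000 CPM of the macrophage sum, the members differed among themselves. Lyz2 was the largest term of that sum by its median, so these ratios and the covariate fit below depend much on that gene. Tlr13 was at 6.95 to 10.2 CPM per 1000 in FED-CTRL, 10.8 to 19.1 in FED-HFD and 5.41 to 7.41 in CR20-HFD, so FED-HFD did not overlap with either. The share of all tested genes without overlap on this scale is not given here. Tlr8 was at 7.53 to 9.26 in FED-CTRL, 9.23 to 21.9 in FED-HFD and 4.54 to 7.18 in CR20-HFD, so FED-HFD overlapped with FED-CTRL at its edge only. CR20-CTRL spread more widely, at 3.60 to 14.1 for Tlr13 and 3.78 to 17.7 for Tlr8. Tlr7 had medians of 8.56 in FED-CTRL and 8.54 in FED-HFD, Tlr1 of 3.01 and 3.33, and Tlr9 of 1.21 and 1.27. The other 5 members had lower medians in FED-HFD than in FED-CTRL on this scale. Tlr5 had medians of 15.6 in FED-CTRL and 7.11 in FED-HFD, Tlr4 of 10.2 and 7.39, Tlr3 of 9.22 and 5.93, Tlr6 of 5.37 and 4.52, and Tlr2 of 4.95 and 3.71. The ranges of these 2 groups overlapped for each of the 5. With the log2 macrophage sum as a covariate, also chosen after seeing the data, 0 members were called in any of the 3 comparisons, and 1, 0 and 2 genes of the whole table. In that fit Tlr8 had a log2 fold change of 0.87 in the first comparison and -1.27 in the second, Tlr9 0.79 and -1.08, Tlr13 0.51 and -0.85, Tlr1 0.27 and -0.47, and Tlr7 0.15 and -0.26. Tlr2, called in the second comparison at -0.73 without the covariate, was at -0.15 with it.

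Over all tested genes, 6.42% were called higher in the first comparison and 7.29% lower in the second. Of 4 dendritic cell markers 1 was called higher in the first comparison and 2 lower in the second, and of 5 markers given for plasmacytoid dendritic cells 2 and 3, at median log2 fold changes of 0.85 and -1.30 (0.65 and -0.85 for the macrophage list). The latter 5 summed to medians of 69.8 CPM in FED-CTRL and 69.7 CPM in FED-HFD, but Tcf4 alone, at 54.4 to 98.7 CPM, made up nearly all of this, and the other 4 stayed under 5 CPM. The 5 neutrophil markers summed to 4.56 to 19.5 CPM, with Ly6g at 0 in 23 of 24 libraries, and of the 2 that could be tested 0 and 1 were called. Markers of B cells, T cells, Kupffer cells and adipocytes had 0 calls in either comparison, although the 5 B cell markers had median log2 fold changes of 0.70 in the first and -0.76 in the second, near those of the macrophage list. The T cell list had medians of -0.12 and -0.04, the Kupffer cell list -0.21 and 0.16, and the adipocyte list -0.29 and 0.32. Of 3 hepatocyte markers that could be tested, 2 were called higher and 2 lower, FED-HFD mice 10 and 13 holding the high values given above. The part of these cell types in the receptor results was not tested.

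The genes whose eWAT levels ran most like each member over the 24 libraries differed between members, by Pearson's r of log2 CPM. Tlr13 ran with Mpeg1 (r = 0.989, and 0.970 for deviations from the group means), which encodes the pore-forming protein perforin-2 of macrophages, then with Nckap1l and Lcp1. Mpeg1 was also first for Tlr8 (0.974), followed by Tlr13 itself (0.969). Tlr7 (0.958) and Tlr1 (0.961) both had Marchf1, a ubiquitin ligase of antigen-presenting cells, in first place. Tlr2 ran with the phosphatase gene Ptpn6 (0.881), Tlr6 with Gatm (0.900), Tlr4 with Gm36161 (0.907), Tlr9 with Ankfy1 (0.850) and Tlr3 with Kynu (0.759). Tlr5 again stood apart, with Slc25a23 (0.927), Nedd4 (0.926) and Scn7a (0.925). All r come from the same libraries and share their groups, and the choice of the top genes among all tested genes favours high values.

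Genes that work with the receptors were then read from 6 lists of 65 genes, of which 61 were tested in eWAT: 17 were called higher in FED-HFD vs FED-CTRL and 0 lower, against 6.42% of all tested genes called higher, and 17 lower in CR20-HFD vs FED-HFD and 0 higher, against 7.29% called lower. The lists were chosen with earlier results of these data known, so these counts are a description and no independent support. The interaction had 9 lower and 0 higher, against 2.34% called lower, and the other 2 comparisons had 0. Without FED-HFD mouse 23 the counts were 14, 13 and 8, while the genes called in either direction over the whole table went from 1278 to 656, from 1554 to 861 and from 387 to 287. Co-receptors and proteins of endosomal trafficking and processing gave more calls than any other list, with 8 of 14 higher in the first comparison and 9 of 14 lower in the second, at median log2 fold changes of 0.98 and -0.99 (all tested genes 0.00 and 0.02). Cd14, a member of this list, is also among the 12 macrophage markers. Cd180, a relative of Tlr4 on myeloid and B cells, was at 1.91 ± 0.32 and -2.28 ± 0.33. Ctss and Lgmn, proteases that cut the ectodomains of endosomal receptors into their active form, were at 2.01 ± 0.37 and 1.37 ± 0.25 in the first comparison and at -2.25 ± 0.37 and -1.39 ± 0.25 in the second.

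Of 6 adaptors, 2 were called in each direction. Pik3ap1, which links the receptors to phosphoinositide 3-kinase, was at 1.98 ± 0.35 and -2.20 ± 0.35, and Ticam2, the bridge between Tlr4 and Ticam1, at 0.99 ± 0.25 and -1.15 ± 0.25. Of 17 kinases and ligases only Ikbke was called, at 1.06 ± 0.23 and -1.02 ± 0.23. Among 9 transcription factors, Irf5 (1.45 ± 0.26), Rel (0.82 ± 0.20) and Fos (1.66 ± 0.45) were higher in FED-HFD, and Irf5 (-1.64 ± 0.26) and Rel (-1.06 ± 0.20) were called lower in the second comparison. Of 7 inhibitors Atf3, a repressor induced by stress, was called, at 2.25 ± 0.43 and -2.17 ± 0.43.

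Of 12 output genes 8 could be tested, and the chemokine Ccl2 (1.23 ± 0.28 and -0.99 ± 0.28) and the cytokine Tnf (1.00 ± 0.33 and -1.27 ± 0.33) were called in both comparisons. Unc93b1, Ly96 and Myd88 fall outside the rule for named genes and were picked after their values were seen: Unc93b1, the chaperone that carries the endosomal receptors, was called at 1.07 ± 0.20 and -1.06 ± 0.20, as was Ly96 at 0.93 ± 0.24 and -0.93 ± 0.24, whereas Myd88 at 0.44 ± 0.11 and -0.34 ± 0.11 was not. The family members Tlr11 and Tlr12, which are outside the 10, were not called in FED-HFD vs FED-CTRL. In the second comparison Tlr11 was called lower, at -1.17 ± 0.30 (edgeR adjusted p = 0.0120).

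**Figure D4:**
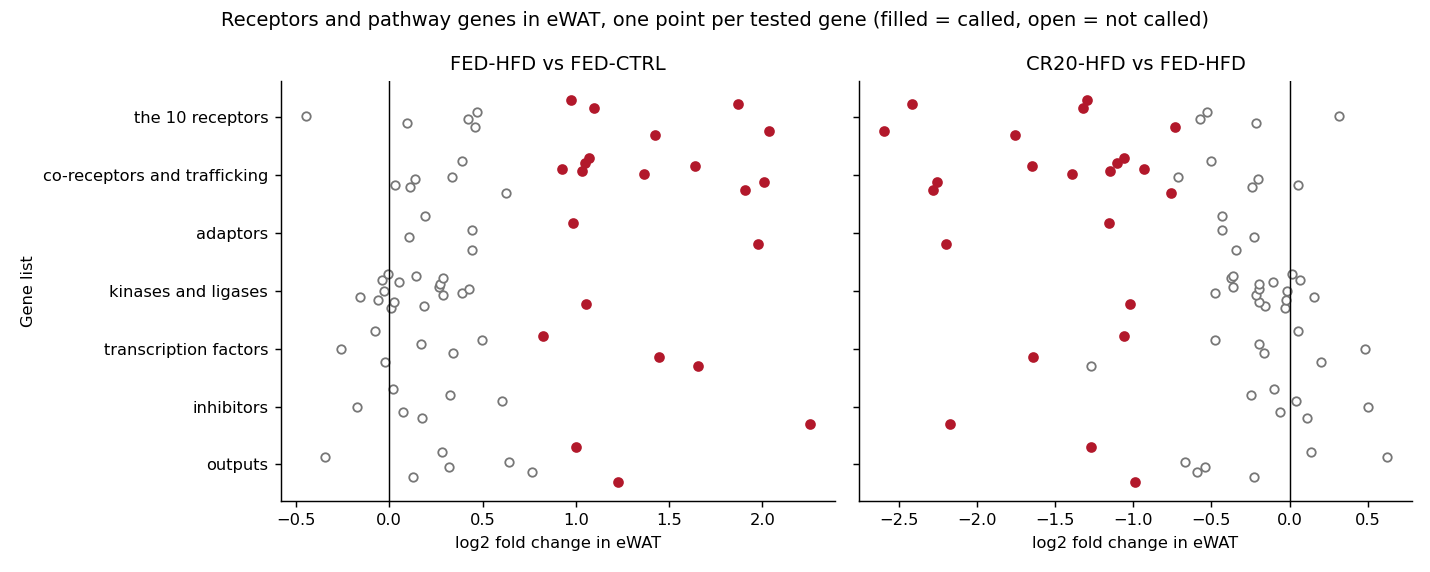
Log2 fold changes in eWAT (horizontal axis) of the 10 receptors and of 61 tested pathway genes in 6 lists (rows), 1 point per gene, filled red where called and open grey where not, for FED-HFD vs FED-CTRL (left) and CR20-HFD vs FED-HFD (right). Filled points are 8 of 14 co-receptor and trafficking genes on the left and 9 of 14 on the right, but 1 of 17 kinases and ligases on each side.

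In liver, no member was called in any comparison between the 4 groups. Tlr9 had 0 to 11 counts per library and was left out by the filter on low counts, so 9 of 10 members were tested. The high fat diet itself moved 0.109% of all tested genes past the limits in offspring of FED dams and 0.522% in offspring of CR20 dams, and the other 3 comparisons 0%. Log2 fold changes of the members for the diet ran from -0.17 to 0.74 in FED and from -0.19 to 0.57 in CR20 offspring. The 0.74 was that of Tlr2, whose medians were 4.00 CPM in FED-CTRL and 3.60 CPM in FED-HFD, and without FED-HFD mouse 40 it was at -0.39 (edgeR adjusted p = 0.985). limma and DESeq2 also called 0 members in each. At an unadjusted edgeR p under 0.05, a limit for which the share of all tested genes is not given here, stood 1 member in CR20-HFD vs FED-HFD and 0 in the other comparisons.

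That member was Tlr2, at 2.25, 3.60 and 25.9 CPM in FED-HFD and 2.99, 3.40 and 4.80 CPM in CR20-HFD. FED-HFD mouse 40 held 356 counts of it, against 31 to 55 in the other 5 mice, so the medians were close while the log2 fold change was -0.99 ± 0.46 (edgeR unadjusted p = 0.0417, adjusted p = 1.00), which was 0.15 without this mouse. An exact two-sided permutation test of the log2 CPM gave p = 0.790. Tlr5, at medians of 6.91 CPM in FED-CTRL and 11.9 CPM in FED-HFD, spread from 4.49 to 19.8 CPM over these 12 mice. The 12 macrophage markers summed to 295 to 750 CPM over the 24 livers and had 0 calls in all 5 comparisons. Of the 5 markers of Kupffer cells, the resident macrophages of liver, Marco was called, higher in CR20-HFD vs CR20-CTRL at 1.35 ± 0.31 (edgeR adjusted p = 0.0433), and the list had a median log2 fold change of 0.01 there. Of the pathway genes, Jun alone was called, higher in CR20-HFD than in CR20-CTRL at 1.58 ± 0.35 (edgeR adjusted p = 0.0379).

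In pituitary all 10 members were tested and none was called, against 0% of all tested genes in each of the 5 comparisons. At an unadjusted edgeR p under 0.05 stood 2 members for the diet in FED and 0 in CR20 offspring, 1 for the maternal groups on HFD and 1 on CTRL, and 1 (Tlr3) for the interaction, and limma and DESeq2 called 0 in each. The share of all tested genes at that unadjusted limit is not given here, so these counts are not read as a result about the members. Tlr1 measured 1.00, 1.26 and 3.09 CPM in FED-HFD and 0.479, 0.853 and 1.18 CPM in CR20-HFD, with FED-HFD mouse 40 far above the rest. Its log2 fold change in CR20-HFD vs FED-HFD was -0.85 ± 0.30 (edgeR unadjusted p = 0.00879, adjusted p = 0.579). FED-HFD mouse 40 was the highest of its group for 8 of 10 members in pituitary, and mouse 10, whose pituitary held the adipocyte markers, for 0. Tlr3 in FED-HFD vs FED-CTRL was at 0.43 ± 0.17 (edgeR adjusted p = 0.405), and Tlr5 in CR20-CTRL vs FED-CTRL at -0.48 ± 0.23 (edgeR adjusted p = 0.280). The macrophage markers, at 206 to 382 CPM, and the pathway genes had 0 calls, the smallest p among the latter belonging to the chemokine Cxcl10 in FED-HFD vs FED-CTRL (2.49 ± 0.60, edgeR adjusted p = 0.155).

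Levels across tissues were compared in the 6 FED-CTRL mice, which gave all 3 tissues. RNA of liver was extracted on columns and that of eWAT and pituitary with RNAzol, so extraction and tissue cannot be told apart in comparisons with liver. In eWAT vs liver 8 of 10 members were called, against 62.7% of all tested genes in either direction. All 8 were higher in eWAT, where 35.3% of tested genes were called higher and 27.5% lower. Tlr9 (3.19 ± 0.43), Tlr4 (2.87 ± 0.18) and Tlr8 (2.53 ± 0.16) differed most. Tlr9 held 0 to 6 counts per FED-CTRL liver, so its ratio rests on few counts. Tlr2 (0.50 ± 0.18) and Tlr3 (0.58 ± 0.15, just under the minimum) were not called. With the mouse as a block Tlr3 was called at 0.59 (edgeR adjusted p = 0.000497), which made 9 of 10, and the block changed no other member's call in the 3 tissue comparisons.

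In eWAT vs pituitary 8 of 10 members were called, against 69.8% of genes in either direction, 34.4% higher and 35.5% lower in eWAT. All 8 were higher in eWAT, from Tlr8 (5.26 ± 0.19), Tlr7 (3.88 ± 0.22) and Tlr5 (3.87 ± 0.27) down to Tlr3 (1.38 ± 0.15). Tlr2 (0.10 ± 0.17) and Tlr9 (0.34 ± 0.30) were not called, with edgeR adjusted p-values of 0.603 and 0.299. In pituitary vs liver 8 of 10 were called, against 75.5% of genes in either direction. Of these, 7 were lower in pituitary, against 35% of genes, led by Tlr8 (-2.74 ± 0.22) and Tlr5 (-2.70 ± 0.27), and Tlr9 was higher (2.85 ± 0.44), against 40.6% of genes. With no filter on low counts Tlr2 (0.58, edgeR adjusted p = 0.00609) and Tlr3 (0.66) were also called in eWAT vs liver, which made 10 of 10. The share of all genes called without the filter is not given here, and with it the share was 62.7%. Without FED-CTRL mouse 41 Tlr2 was called in eWAT vs liver (0.67) and in pituitary vs liver (0.58). The median log2 fold change of all tested genes was 0.10, 0.00 and 0.13 in the order given here. Scaled over the 3 tissues, the macrophage sum of these mice was 1349 to 1901 CPM in eWAT, 518 to 700 CPM in liver and 199 to 239 CPM in pituitary, and its part in the receptor levels was not tested.

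**Figure D5:**
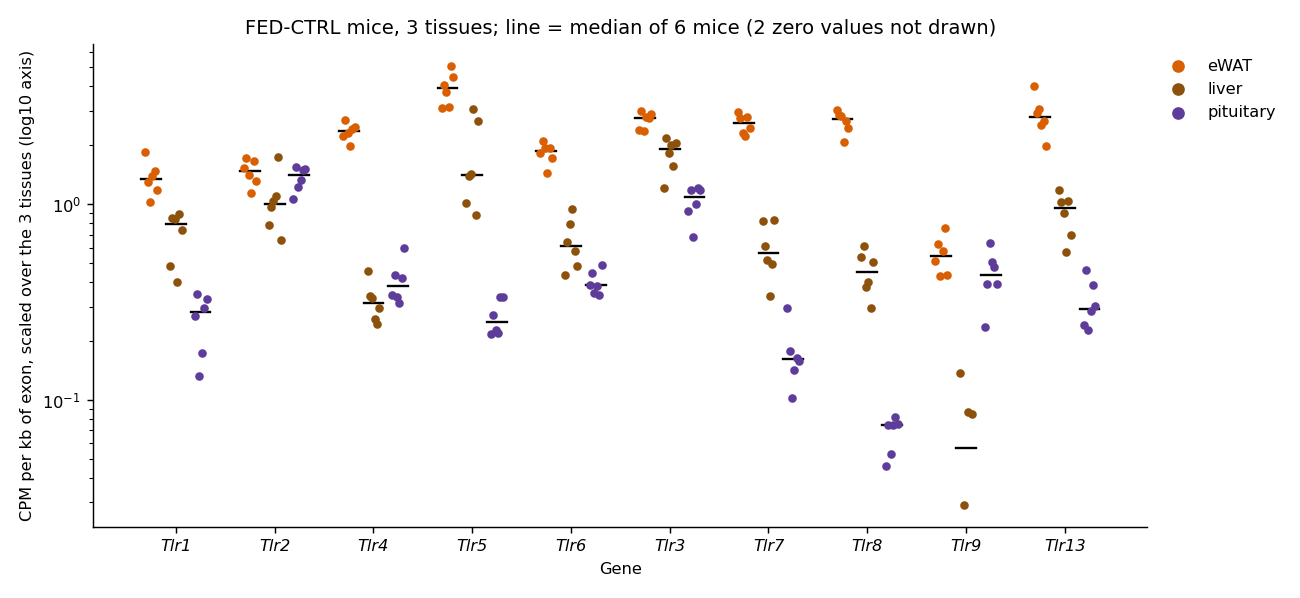
CPM per kilobase of exon, scaled over the 3 tissues as in the tissue fit (vertical log10 axis), of each receptor in the eWAT, liver and pituitary of the 6 FED-CTRL mice, 1 point per mouse with a line at the median, and 2 liver values of Tlr9 at 0 not drawn. Tlr8 spans the widest range, with medians of 2.73 in eWAT, 0.452 in liver and 0.0744 in pituitary, while those of Tlr2 are 1.47, 1.00 and 1.41.

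Per kilobase of exon the order of the receptors differed by tissue. The values here were scaled within each tissue, as in the comparisons of the 4 groups, so they give an order within a tissue and cannot be set against those of another tissue. In FED-CTRL eWAT the medians ran from Tlr5 (4.86 CPM per kb) through Tlr13 (3.50), Tlr3 (3.47), Tlr8 (3.41), Tlr7 (3.24), Tlr4 (2.95), Tlr6 (2.35), Tlr2 (1.85) and Tlr1 (1.69) to Tlr9 (0.685), and of neighbours in that order only Tlr1 and Tlr9 did not overlap. In FED-HFD eWAT, Tlr13 (10.7) and Tlr8 (10.5) came first, then Tlr7 (5.80) and Tlr1 (4.39), with Tlr9 (1.32) last, and all neighbours overlapped. In FED-CTRL liver Tlr3 (1.38) and Tlr5 (1.03) led, and Tlr4 (0.228) and Tlr9 (0.0414) came last without overlap. In FED-HFD liver Tlr5 (1.77) stood before Tlr3 (1.26), and Tlr4 (0.223) and Tlr9 (0.0835), again last, overlapped. In FED-CTRL pituitary Tlr2 (1.56) and Tlr3 (1.22) led, clear of Tlr9 (0.487) in the third place, and Tlr8 (0.0831) was last, below the range of Tlr7 (0.181).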

How the data were processed

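RNA sequencing of eWAT, liver and pituitary of 24 male mice (72 libraries) was deposited as 1 table of raw counts per Ensembl gene. According to the methods and the labels, the authors checked paired reads with FastQC, trimmed them with Trimmomatic, aligned them with STAR to GRCm39 and obtained the deposited counts with featureCounts of Subread. Tool versions, the strand setting and the treatment of reads with several placements are not given in the sources used here, and the sources name both a total RNA and an mRNA TruSeq Stranded kit. Strand was thus not taken as known for Tlr3 and its antisense gene.

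Counts were used as deposited. Of 55416 identifiers 54749 matched the GENCODE M39 annotation, which gave symbols, positions and exon lengths. Groups came from the sample titles. Genes passed filterByExpr with the 4 groups (15964 tested in eWAT, 13787 in liver, 16657 in pituitary), were scaled by TMM and tested with edgeR 4.0.16 (R 4.3.3) by the quasi-likelihood F-test over the 24 libraries of a tissue. P-values were adjusted by Benjamini-Hochberg over all tested genes. Calls needed an adjusted p of at most 0.055 and a log2 fold change of at least 0.58 in size, as in the study's methods, and the study's own test, limma voom with quality weights (limma 3.58.1), was run as an alternative. SE is the log2 fold change divided by the square root of F. Log2 CPM used a prior count of 2. Tissues were compared over 18 FED-CTRL libraries and 17255 genes. A mouse number is shared by the 3 tissues of 1 animal, so the mouse as a block was an alternative there. Within a tissue each mouse has a single library. CPM were scaled within a tissue, and for the tissue comparison over its 18 libraries. The permutation test was exact, two-sided and on log2 CPM. The scripts were tested on simulated data first. With 9842813 counts or more per library, 1 count is at most about 0.1 CPM.

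Alternatives were limma, DESeq2 1.42.0, its size factors in edgeR, no filter, more than 1 CPM in at least 6 libraries, log2 fold change limits of 1 or none, a fit to just the 2 groups at hand, a covariate for the range of the animal number, and each mouse left out. The members and the gene lists were chosen with earlier results of these data known. Named were all 10 members, from each list up to 3 called genes with the smallest p (or up to 2 where none was called), and the 3 genes most like each member in eWAT by Pearson's r, of which the first is always given.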

Additional observations from a re-analysis of the deposited data

Results flagged for a closer look

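Single libraries that stood apart from the other 5 of their group were looked for in 120 groups of 6 (10 members, 3 tissues, 4 groups), by the gap to the nearest library over the range of the group, both on log2 CPM, with 0.625 as Dixon's limit. 7 were found, where chance gives about 1 in 20, or 6.

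In eWAT, Tlr2 of CR20-CTRL mouse 48 was low, at 5.92 CPM against 9.57 to 12.3 CPM in the other 5 (gap over range 0.660). Tlr4 of FED-HFD mouse 23 was high, at 37.7 CPM against 24.0 to 28.1 CPM (0.648), and so was Tlr9 of CR20-CTRL mouse 5, at 6.82 CPM against 1.44 to 2.50 CPM (0.651). In liver, Tlr2 was high in FED-HFD mouse 40, at 25.9 CPM against 2.25 to 4.05 CPM (0.764), and in CR20-HFD mouse 6, at 4.80 CPM against 2.99 to 3.49 CPM (0.675). In pituitary, Tlr1 of FED-HFD mouse 40 was high, at 3.09 CPM against 1.00 to 1.39 CPM (0.718), and Tlr3 of CR20-CTRL mouse 47 was low, at 5.59 CPM against 7.70 to 8.69 CPM (0.725). FED-HFD mouse 40 thus stood apart in 2 tissues, for different receptors.

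The eWAT response to the high fat diet differed between offspring of CR20 and FED dams by the interaction term for Tlr13 (-2.51 on the log2 scale), Tlr8 (-2.45), Tlr1 (-1.72) and Tlr7 (-1.38). Tlr13 and Tlr8 were not called when any 1 of 9 mice was left out, at -2.31 to -2.53 and -2.16 to -2.47 in those fits (edgeR adjusted p of 0.0569 to 0.0720). Tlr1 and Tlr7 were not called when any 1 of 18 mice was left out, at -1.34 to -1.83 and -0.99 to -1.46 (edgeR adjusted p of 0.0572 to 0.110).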

How the results depend on the processing

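No result changed direction past the limits under any alternative. In eWAT, leaving out 1 mouse gave 4 to 5 members higher in FED-HFD vs FED-CTRL, 6 to 8 lower in CR20-HFD vs FED-HFD and 0 to 6 in the interaction. In the interaction limma called 1 member (Tlr8) and 177 genes of the whole table, DESeq2 6 and 820, edgeR as reported 4 and 387, and edgeR without the 3 libraries with epididymis marker counts 0 and 0, with edgeR adjusted p-values of 0.139 to 0.151 for the 4 members at log2 fold changes of -2.28 (Tlr13), -2.22 (Tlr8), -1.71 (Tlr1) and -1.42 (Tlr7). With the range of the animal number as a covariate Tlr7, at -1.38 as before, was lost there (edgeR adjusted p = 0.0608). With the macrophage sum as a covariate, 0 members were called in each of these 3, and hardly any gene of the whole table, as given above. The cause was not tested. The fits without the 3 libraries and with the macrophage sum were chosen after seeing the data. Tlr9 in FED-HFD vs FED-CTRL was lost in 21 fits, with the macrophage covariate, no filter, the animal-number covariate and the limit of 1 among them. Tlr2 in CR20-HFD vs FED-HFD was lost in limma (-0.51), at the limit of 1 and with the macrophage covariate. Tlr4 in that comparison was called in 5 other settings and without any 1 of 6 mice, and Tlr6 in 2 settings and without either of 2 mice. In the interaction Tlr2 and Tlr9 were gained in DESeq2, Tlr2 also without either of 2 mice and Tlr6 without 1. In liver and pituitary 0 members were called under every setting run.

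Between tissues, the replicate block of the mouse gave 9 members in eWAT vs liver and 8 in each of the other 2, as against 8, 8 and 8, and leaving out a mouse gave 8 to 9 in eWAT vs liver, 7 to 9 in pituitary vs liver and 8 in eWAT vs pituitary. With no filter eWAT vs liver had 10, Tlr2 and Tlr3 being gained, and the other 2 had 8 each. Shares of all genes called in these alternatives are not given here. In the fits as reported they were 62.7% in eWAT vs liver, 75.5% in pituitary vs liver and 69.8% in eWAT vs pituitary. Depth limits Tlr9 in liver, at 0 to 11 counts per library, and Tlr8 in pituitary, at 3 to 28.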
